A study of Mus musculus with 8 samples.

Results

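Glycolysis, the entry of pyruvate into mitochondria and the citric acid cycle were examined as 43 named genes in the epidermis of newborn mice that express a mutant mitochondrial helicase. The genes were matched by symbol to probe sets that name 1 gene only, and where a gene had several, the one of highest mean on the 8 arrays was used. This measured 39 of the 43 among 22180 genes in all: 16 of 19 for glycolysis and lactate, 10 of 11 for pyruvate dehydrogenase, its kinases and pyruvate entry ("pyruvate entry" below), and 13 of 13 for the citric acid cycle. Gpi1, Eno1 and Mpc2 had no such probe set, and Aldoa lay on a probe set of several genes, so these 4 were not analysed here.

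The mutants, K320E-TwinkleEpi newborns (K320E below), expressed K320E-Twinkle in the epidermis through the K14 promoter, which is active in basal keratinocytes. Their controls were newborns of the genotype R26-K320E-TwinkleloxP/+, so the label of the controls names the mutant Twinkle as well. All were C57BL/6J mice at postnatal day 0, with 4 arrays in each group, and the values are log2 intensities as the authors deposited them. Whether the 4 arrays of a group came from separate animals is not in the labels, and the p-values therefore describe the spread among these arrays alone. Sex-linked transcripts differed within each group (next paragraph), so the arrays of a group were not all repeats of the same RNA. Part of the spread may still be technical.

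Twnk, which encodes Twinkle, measured 9.28, 9.09, 8.91 and 8.91 in K320E and 6.55, 6.95, 6.64 and 6.80 in controls, so its level separated the genotypes on all 8 arrays. Keratinocyte genes were high on all arrays: the mean over 7 suprabasal markers ran from 11.93 to 12.03 in K320E and from 11.91 to 12.09 in controls. Pair-wise correlations of arrays were at least 0.976. Sex-linked transcripts differed among the arrays of both groups. Control replicate 2 held both Xist (9.27) and Y-linked transcripts (mean of 3 genes 9.05), and control replicate 3 was low for both (6.17 and 4.75). In K320E, replicate 3 was low for Xist (6.84) and high for the Y-linked transcripts (8.64). K320E replicates 1, 2 and 4 were the reverse, with Xist from 12.07 to 12.15. The labels give no sex. Hk2, Slc2a1, Pfkfb3, Slc16a1, Mpc1, Pdha1, Pdk3 and the group medians are also given without control replicates 2 and 3.

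Cells take up glucose through transporters such as GLUT1, trap it by phosphorylation with hexokinase, and break it down to pyruvate in the cytosol. Pyruvate is either reduced to lactate and exported by monocarboxylate transporters, or carried into mitochondria, where the pyruvate dehydrogenase complex turns it into acetyl-CoA. Pyruvate dehydrogenase kinases phosphorylate and switch off that complex. The citric acid cycle then oxidises acetyl-CoA and passes electrons to the respiratory chain, part of which is encoded in the mitochondrial DNA that Twinkle helps to replicate.

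At the level of single genes, hexokinase 2 was the 1 member that passed the test over all genes (limma adjusted p under 0.05), where 0.879% of all genes did and 0.685% did so upward; it rose. Genes of glucose entry, lactate export by MCT1, a pyruvate dehydrogenase kinase and several cycle enzymes had higher means in K320E without passing it. The median log2 fold change (K320E minus control) was 0.18 for glycolysis and lactate, -0.01 for pyruvate entry and 0.09 for the citric acid cycle, against -0.0005 over all genes. Without control replicates 2 and 3 these medians were 0.20, 0.02 and 0.14. All fold changes and rises below are on this log2 scale, except values written with the ending -fold. At an unadjusted p under 0.05, 13 members were higher and 1 lower, where 8.77% of all genes were higher and 6.06% lower. By group these were 5 of 16 higher and 0 lower in glycolysis and lactate, 3 higher and 1 lower of 10 in pyruvate entry, and 5 of 13 higher and 0 lower in the citric acid cycle. All K320E arrays lay above all controls for 10 members, where this held for 5.5% of all genes, and below all controls for 1, where it held for 3.75% (11 of 39 members in either direction, 9.25% of all genes). Fold changes were positive for 28 of 39 members and for 49.8% of all genes. The members were chosen with earlier results of these arrays known, so these counts describe the genes and are not independent support. In bulk tissue, fewer cells of a type and less RNA per cell cannot be told apart.

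**Figure D1:**
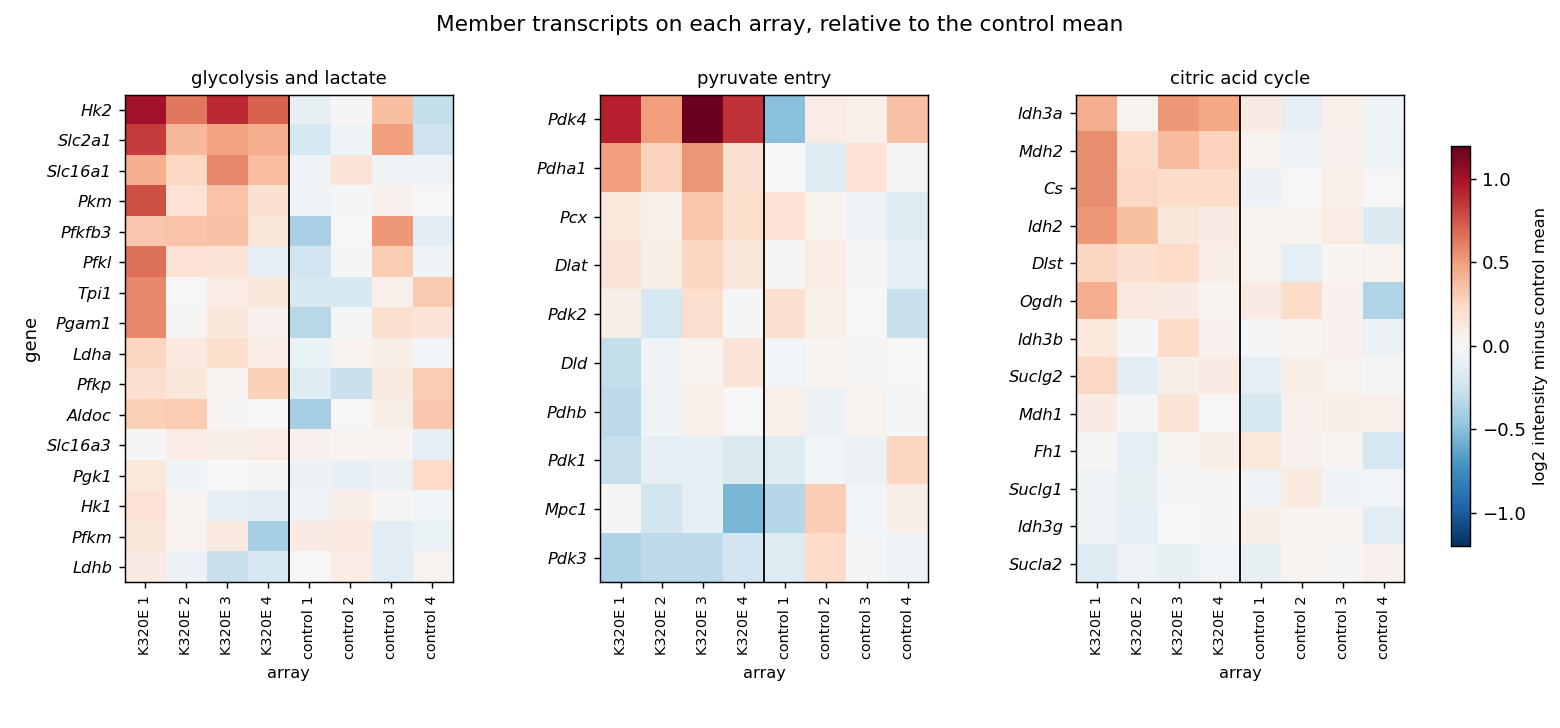
Log2 intensity of each of the 39 measured members (rows, ordered by fold change within each group) on each array (columns), minus the gene's control mean. Red is higher and blue lower. Hk2 and Pdk4 are red on all 4 K320E arrays, Pdk3 is blue on all 4, and K320E replicate 1 is the reddest column in glycolysis and lactate.

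Promoter sequences are shown for the glucose transporter, hexokinase 2, the lactate carrier and the kinase that had the highest fold changes in their roles. The windows are RefSeq's and run from 250 bases before to 50 bases after the annotated start, 5′ to 3′ on the gene's strand. Capitals mark the core letters that hypoxia-inducible factors recognise, ACGTG or GCGTG, on either strand; matches may overlap.
Slc2a1 (glucose transporter GLUT1), GRCm38.p6 chr4:119108495-119108794, + strand: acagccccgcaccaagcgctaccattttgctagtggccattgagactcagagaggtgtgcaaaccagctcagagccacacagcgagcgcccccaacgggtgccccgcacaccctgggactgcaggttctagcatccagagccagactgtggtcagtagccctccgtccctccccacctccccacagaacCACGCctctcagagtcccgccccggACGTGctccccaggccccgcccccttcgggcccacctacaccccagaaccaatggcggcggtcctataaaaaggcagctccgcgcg
Hk2 (hexokinase 2), GRCm38.p6 chr6:82774405-82774704, - strand: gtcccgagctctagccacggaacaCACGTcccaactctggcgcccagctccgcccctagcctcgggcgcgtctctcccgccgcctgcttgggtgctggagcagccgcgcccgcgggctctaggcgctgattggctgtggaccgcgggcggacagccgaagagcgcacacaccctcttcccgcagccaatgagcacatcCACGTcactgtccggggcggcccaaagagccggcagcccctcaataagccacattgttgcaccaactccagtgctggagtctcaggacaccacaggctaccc
Slc16a1 (lactate carrier MCT1), GRCm38.p6 chr3:104638414-104638713, + strand: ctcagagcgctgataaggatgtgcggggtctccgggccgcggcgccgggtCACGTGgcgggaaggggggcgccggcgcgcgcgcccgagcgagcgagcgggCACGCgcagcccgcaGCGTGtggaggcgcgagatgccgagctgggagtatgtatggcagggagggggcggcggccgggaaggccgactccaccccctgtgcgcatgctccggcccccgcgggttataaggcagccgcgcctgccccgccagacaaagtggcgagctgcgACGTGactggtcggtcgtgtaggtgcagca
Pdk4 (pyruvate dehydrogenase kinase 4), GRCm38.p6 chr6:5496229-5496528, - strand: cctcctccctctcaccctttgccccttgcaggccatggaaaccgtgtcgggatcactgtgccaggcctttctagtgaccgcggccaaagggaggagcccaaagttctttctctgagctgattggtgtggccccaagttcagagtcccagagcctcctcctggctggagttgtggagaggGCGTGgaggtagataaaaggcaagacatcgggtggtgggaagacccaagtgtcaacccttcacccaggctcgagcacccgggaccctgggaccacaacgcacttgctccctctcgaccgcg
The Hk2 window held 2 matches, which begin 226 and 52 bases before the start. Slc2a1 held 2 as well, at 61 and 36 bases before it, while Slc16a1 held 5 and Pdk4 held 1, at 71 bases before the start. Promoter windows were matched for 38 of the 39 measured members, and 30 of them (78.9%) held a match in at least 1 window, against 46.7% of 27025 genes with a window. The share was 15 of 16 in glycolysis and lactate, 8 of 10 in pyruvate entry and 7 of 12 in the citric acid cycle. These letters contain CG, and the member windows were richer in G and C (median 61.3%) than all windows (52.7%). Among all windows at or above the members' median, 70.2% held a match. That is a share of windows, while the 78.9% is a share of genes with a match in any window. The 38 members had 55 windows, and several windows can raise a gene's chance of a match, so these shares cannot be compared directly. The letters TGATGNAA of the amino acid response element, searched on both strands, were in 0 of the 38 members' windows and in those of 4.51% of genes. A match is a description of the letters and not evidence of a bound site.

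Within glycolysis, glucose entry and its first phosphorylation held the largest fold changes. Hk2 encodes the inducible hexokinase that binds to the outer mitochondrial membrane. It measured 8.63, 8.25, 8.52 and 8.33 in K320E and 7.53, 7.63, 7.98 and 7.34 in controls. The lowest K320E array lay above the highest control, replicate 3. Hk2 rose by 0.81 on the log2 scale (SE 0.14, limma adjusted p = 0.036), or 1.75-fold, and was higher in 4 of 4 K320E arrays. The call depended on the arrays used: it was kept without K320E replicate 2 or control replicate 3 and lost without any 1 of the other 6, where the adjusted p ran up to 0.117, while the fold change stayed between 0.72 and 0.93. Without control replicates 2 and 3 together it was 1.00 (adjusted p = 0.026). With the Y-linked level as a covariate the adjusted p was 0.060.

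Hk1, the constitutive hexokinase, measured 7.17, 7.03, 6.90 and 6.87 in K320E and 6.93, 7.07, 7.01 and 6.96 in controls. Its groups overlapped fully (log2 fold change -0.005, 95% confidence interval -0.18 to 0.17). Slc2a1, which encodes GLUT1, the main glucose transporter of keratinocytes, measured 11.10, 10.66, 10.74 and 10.70 in K320E and 10.07, 10.21, 10.75 and 10.01 in controls. Control replicates 1, 2 and 4 lay well below every K320E array, but control replicate 3 reached 10.75, above K320E replicates 2 to 4. The log2 fold change was 0.54 (SE 0.17, limma adjusted p = 0.18). Without control replicate 3 it was 0.70 and passed the threshold (limma adjusted p = 0.042), and without control replicates 2 and 3 it was 0.76 (adjusted p = 0.059). No other removal of 1 array gave a call for Slc2a1, with fold changes down to 0.44 (adjusted p up to 0.32), and with the level of hair structure genes as a covariate it was 0.30 (adjusted p = 0.76). A dimmer probe set of Slc2a1 had a fold change of 0.33.

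The committed step of glycolysis is set by phosphofructokinase and by PFKFB3, which makes its activator. Pfkfb3 measured 6.69, 6.70, 6.72 and 6.51 in K320E and 5.97, 6.36, 6.88 and 6.24 in controls. Control replicate 3 lay above every K320E array, and the fold change of 0.29 had a limma adjusted p of 0.47. Without control replicates 2 and 3 the Pfkfb3 fold change was 0.55 (adjusted p = 0.075), and leaving out 1 array gave 0.16 to 0.46. The liver-type subunit Pfkl measured 7.65, 7.16, 7.14 and 6.89 in K320E and 6.76, 6.96, 7.29 and 6.93 in controls, and the platelet-type subunit Pfkp measured 8.58, 8.52, 8.41 and 8.67 in K320E and 8.24, 8.12, 8.49 and 8.68 in controls. Both overlapped between the groups, with fold changes of 0.22 and 0.16. Pfkm, the muscle-type subunit, measured 6.21, 6.12, 6.19 and 5.68 in K320E and 6.17, 6.20, 5.94 and 6.00 in controls. Its fold change was -0.03, and 1 K320E array, replicate 4, was the lowest of all 8.

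In the lower part of glycolysis 0 genes passed the test. Pkm encodes pyruvate kinase M, which makes pyruvate and ATP. It measured 10.63, 10.04, 10.21 and 10.05 in K320E and 9.83, 9.85, 9.92 and 9.87 in controls. All K320E arrays lay above all controls, though K320E replicate 1 stood well above the other K320E arrays (log2 fold change 0.37, SE 0.12, limma adjusted p = 0.21; 0.23 without K320E replicate 1). The aldolase Aldoc, triosephosphate isomerase Tpi1, the phosphoglycerate kinase Pgk1 and the mutase Pgam1 had fold changes of 0.15, 0.20, 0.03 and 0.19 with overlapping groups. Their adjusted p ran from 0.61 to 0.93 in limma's fit. When 1 array was left out, the lowest fold changes were 0.018 for Aldoc, 0.073 for Tpi1, -0.008 for Pgk1 and 0.067 for Pgam1, and the highest were 0.26, 0.31, 0.11 and 0.26.

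Lactate dehydrogenase interconverts pyruvate and lactate, and monocarboxylate transporters move lactate over the cell membrane. Slc16a1, which encodes MCT1, measured 8.03, 7.85, 8.18 and 7.98 in K320E and 7.56, 7.76, 7.55 and 7.54 in controls. The groups did not overlap, and control replicate 2 was the control nearest to K320E. The log2 fold change was 0.41 (SE 0.08, limma adjusted p = 0.065). Slc16a1 passed in 1 of 12 alternatives, with the Y-linked level as a covariate (adjusted p = 0.029), and in 0 of 8 fits without 1 array. Its adjusted p was 0.14 with a replicate block, 0.25 with the muscle and 0.48 with the hair level as a covariate. Without control replicates 2 and 3 the fold change was 0.46 (adjusted p = 0.10). Slc16a3, which encodes the exporter MCT4, measured 6.00, 6.12, 6.09 and 6.11 in K320E and 6.08, 6.06, 6.06 and 5.91 in controls, with overlapping groups and a fold change of 0.06 (95% confidence interval -0.08 to 0.19). Ldha, the muscle-type subunit, measured 6.08, 5.95, 6.04 and 5.92 in K320E and 5.75, 5.87, 5.89 and 5.79 in controls. It lay apart by a small margin (fold change 0.17, limma adjusted p = 0.24). Its probe set was dim, as were those of Slc16a3, Pfkm and Pcx. The array medians of all probe sets lay between 6.06 and 6.11. Ldhb, the heart-type subunit, measured 8.76, 8.60, 8.39 and 8.46 in K320E and 8.66, 8.76, 8.53 and 8.71 in controls, with overlapping groups and a fold change of -0.11.

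**Figure D2:**
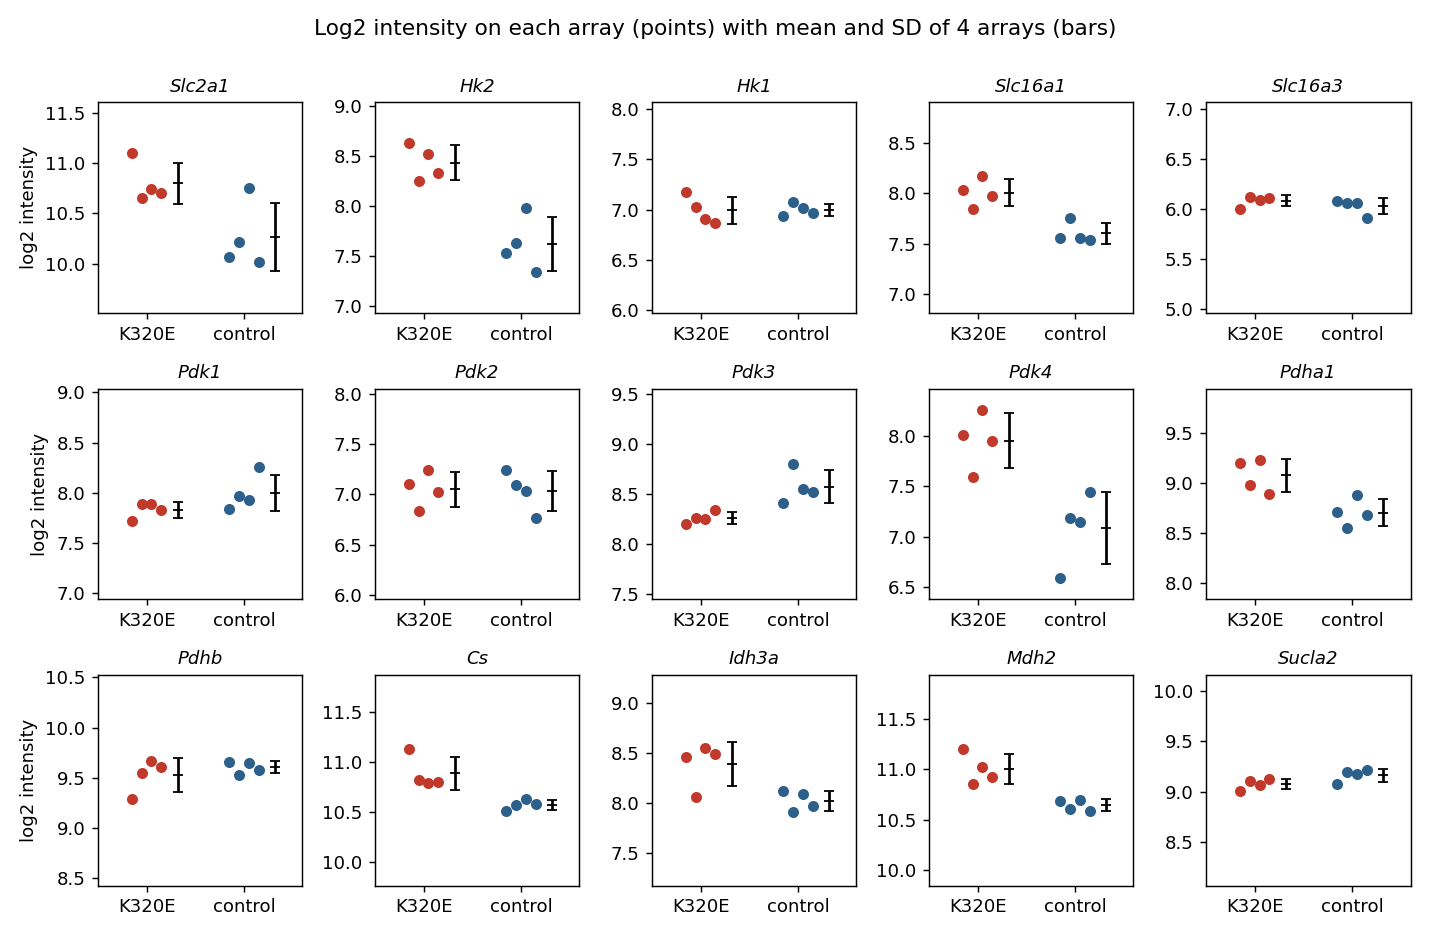
Log2 intensity of 15 members on each array (points) with the mean and SD of 4 arrays (bars); every vertical axis spans the same log2 range. Hk2, Slc16a1, Pdk4, Pdha1, Cs and Mdh2 have K320E points that lie all above the controls, Pdk3 has them all below, and Slc2a1 overlaps through 1 high control.

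Pyruvate entry was the group without a common direction, with 5 positive and 5 negative fold changes and 0 genes past the test. Its 4 kinases spread widest. Pdk4, the kinase known to be induced in fasting and under fatty acid use, measured 8.02, 7.59, 8.26 and 7.95 in K320E and 6.59, 7.18, 7.14 and 7.44 in controls. Each K320E array was higher than each control, and control replicate 1 lay well below the other controls. The log2 fold change of 0.87 (SE 0.19), or 1.83-fold, was the largest among all members, with a limma adjusted p of 0.080. It passed when the dimmest 33.3% of genes were left out (adjusted p = 0.038) and with an intensity trend and robust prior (adjusted p = 0.044). Pdk4 did not pass in the other 10 alternatives, where the adjusted p ran up to 0.39, or in any of the 8 fits without 1 array, where it ran up to 0.20.

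Pdk3, a further kinase of the complex, had the opposite sign. It measured 8.20, 8.26, 8.25 and 8.34 in K320E and 8.41, 8.80, 8.55 and 8.52 in controls, and every K320E array lay below every control (log2 fold change -0.31, SE 0.08, limma adjusted p = 0.14). Pdk1, the kinase known as a hypoxia target, measured 7.72, 7.89, 7.89 and 7.83 in K320E and 7.84, 7.97, 7.93 and 8.26 in controls. K320E replicates 2 and 3 lay within the range of the controls, and the fold change was -0.17 (95% confidence interval -0.37 to 0.04). A second probe set of Pdk1, of similar brightness, gave -0.33. Pdk2, the widely expressed kinase, measured 7.11, 6.83, 7.24 and 7.03 in K320E and 7.24, 7.10, 7.04 and 6.77 in controls, with fully overlapping groups and a fold change of 0.02. Of the 4 kinases, 1 was above all controls on every K320E array and 1 below them, where this held for 5.5% and 3.75% of all genes. The other 2 overlapped, and none of the 4 passed the test.

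Subunits of the complex that the kinases act on had fold changes of either sign, and none passed the limma test. Pdha1 encodes the E1 alpha subunit, which carries the sites the kinases phosphorylate. It measured 9.20, 8.98, 9.23 and 8.89 in K320E and 8.71, 8.55, 8.88 and 8.68 in controls, and the groups were separated by a narrow gap (log2 fold change 0.37, SE 0.10, limma adjusted p = 0.13). The E1 beta subunit Pdhb, the partner of Pdha1 in the same enzyme, had a mean of 9.53 ± 0.17 in K320E and 9.60 ± 0.06 in controls (n = 4 each, ± SD), a fold change of -0.08. Dlat, the E2 acetyltransferase, averaged 7.61 ± 0.08 in K320E and 7.46 ± 0.08 in controls (n = 4 each, ± SD), a fold change of 0.15 (limma adjusted p = 0.31). Dld, the E3 subunit that the 2-oxoglutarate dehydrogenase complex also uses, had a fold change of -0.03. Pdha1 and Pdk3 lie on the X chromosome, as do Pgk1 and Idh3g. Without control replicates 2 and 3, the controls with unusual sex-linked transcripts, the fold changes were 0.38 for Pdha1 and -0.20 for Pdk3. K320E replicate 3, which differed in these transcripts from the other K320E arrays, was kept in that fit.

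Other routes for pyruvate showed no called difference. Pcx, pyruvate carboxylase, which makes oxaloacetate, measured 6.01, 5.95, 6.22 and 6.10 in K320E and 6.06, 5.93, 5.82 and 5.74 in controls, with groups that overlapped through control replicate 1 (fold change 0.18, limma adjusted p = 0.37). Mpc1, a subunit of the mitochondrial pyruvate carrier, measured 6.69, 6.48, 6.59 and 6.16 in K320E and 6.36, 7.005, 6.67 and 6.79 in controls. Both groups spread widely, control replicate 1 lay below 3 of the 4 K320E arrays, and the fold change was -0.23 (limma adjusted p = 0.55). It was -0.09 without control replicates 2 and 3, and a second probe set of Mpc1 gave -0.02.

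In the citric acid cycle 10 of 13 fold changes were positive, 4 members had groups that did not overlap, all higher in K320E, and 0 passed the test; over all genes 5.5% lay apart upward and 0.879% passed. Mdh2, the mitochondrial malate dehydrogenase that closes the cycle, measured 11.20, 10.86, 11.02 and 10.92 in K320E and 10.69, 10.60, 10.70 and 10.58 in controls. Its log2 fold change was 0.36 (SE 0.08, limma adjusted p = 0.084). Cs, citrate synthase, which joins acetyl-CoA to oxaloacetate, measured 11.13, 10.82, 10.79 and 10.80 in K320E and 10.51, 10.57, 10.63 and 10.58 in controls. Both genes were higher on all 4 K320E arrays, and K320E replicate 1 was the highest array for each (Cs fold change 0.31, SE 0.08, limma adjusted p = 0.13).

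The NAD-dependent isocitrate dehydrogenase showed no common shift of its subunits. Its catalytic subunit Idh3a measured 8.46, 8.06, 8.55 and 8.49 in K320E and 8.12, 7.91, 8.09 and 7.97 in controls. K320E replicate 2 lay among the controls, while the other 3 K320E arrays lay clear of them (log2 fold change 0.37, SE 0.11, limma adjusted p = 0.17). Without that array Idh3a had a fold change of 0.48 and passed the threshold (limma adjusted p = 0.031). It did not pass without any 1 of the other 7 arrays, where the fold change went down to 0.31 (adjusted p up to 0.31), and in 0 of 12 alternatives (adjusted p up to 0.52). The other subunits Idh3b and Idh3g had fold changes of 0.09 and -0.05, and Idh3g measured 10.10, 10.05, 10.17 and 10.15 in K320E and 10.24, 10.19, 10.18 and 10.04 in controls. The NADP-dependent mitochondrial enzyme Idh2 averaged 10.11 ± 0.20 in K320E and 9.83 ± 0.11 in controls (n = 4 each, ± SD), with groups that did not overlap (fold change 0.28, limma adjusted p = 0.25).

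Within the 2-oxoglutarate dehydrogenase complex, the E2 subunit Dlst averaged 9.08 ± 0.08 in K320E and 8.88 ± 0.08 in controls (n = 4 each, ± SD). Its groups did not overlap, and the fold change was 0.20 (limma adjusted p = 0.20). The E1 subunit Ogdh had a fold change of 0.17 with overlapping groups. The succinyl-CoA ligase genes lay at the lower end of the list. Sucla2, the ADP-forming beta subunit, measured 9.01, 9.10, 9.07 and 9.13 in K320E and 9.07, 9.19, 9.17 and 9.22 in controls, Suclg2, the GDP-forming one, measured 9.80, 9.41, 9.62 and 9.64 in K320E and 9.43, 9.61, 9.58 and 9.56 in controls, and the shared alpha subunit Suclg1 measured 8.33, 8.30, 8.36 and 8.40 in K320E and 8.35, 8.51, 8.34 and 8.35 in controls. All 3 overlapped, with fold changes of -0.09, 0.07 and -0.04. The sign for Suclg2 depended on the probe set, a second one giving -0.16. Fumarase Fh1 and the cytosolic malate dehydrogenase Mdh1 had fold changes of 0.004 and 0.06.

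**Figure D3:**
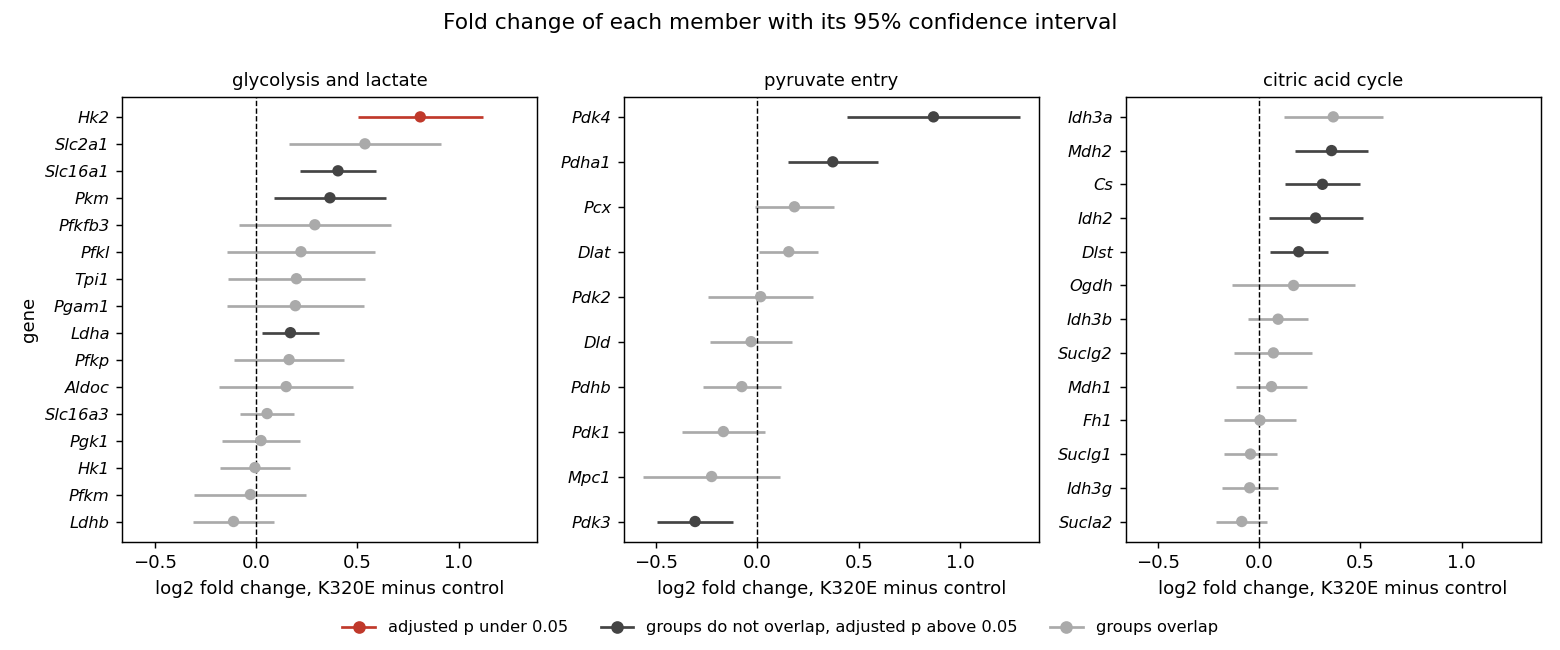
Log2 fold change (K320E minus control) of each member with its 95% confidence interval from limma, by group. Hk2, in red, is the 1 gene past an adjusted p of 0.05; dark points are genes whose arrays do not overlap between the groups, and these are all positive except Pdk3.

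Whether genes of the same step differed unequally was tested within arrays, as the log2 intensity of 1 gene minus that of another, by exact two-sided permutation of 4 against 4 arrays. The smallest p this allows is 0.0286, and p-values were adjusted over the 6 pairs that could be formed (of 8 listed). Hk2 minus Hk1 averaged 1.44 ± 0.16 in K320E and 0.62 ± 0.25 in controls (n = 4 each, ± SD), which differ by 0.82 (SE 0.15), with an exact p of 0.0286 and an adjusted p of 0.086. Slc16a3 minus Slc16a1 averaged -1.93 ± 0.16 in K320E and -1.58 ± 0.11 in controls (n = 4 each, ± SD), which differ by -0.35 (SE 0.10), again with an exact p of 0.0286 and an adjusted p of 0.086. In both pairs the arrays of the groups did not overlap. Ldha minus Ldhb differed by 0.28 (exact p = 0.086, adjusted p = 0.17), with overlap. The probe sets of Slc16a3 and Ldha were dim, which limits these pairs. The remaining pairs, Pfkp minus Pfkl, Pdk1 minus Pdk2 and Sucla2 minus Suclg2, differed by -0.06, -0.18 and -0.16, with exact p from 0.17 to 0.83. No pair passed 0.05 after adjustment, which would take at least 4 of the 6 at the smallest p. A difference within an array shows unequal change and not which gene changed.

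**Figure D4:**
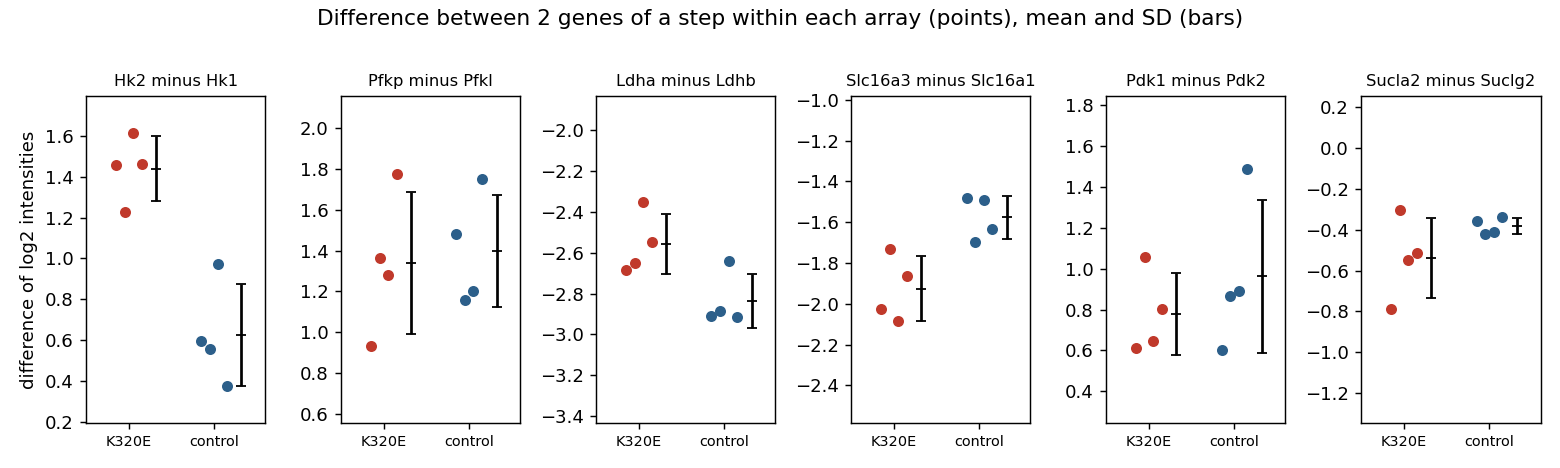
Difference between the log2 intensities of 2 genes within each array (points), with the mean and SD of 4 arrays (bars), for 6 pairs; all axes span the same range. The K320E points of Hk2 minus Hk1 lie above all controls and those of Slc16a3 minus Slc16a1 below all controls, while the other 4 pairs overlap.

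Single arrays weighed on the group values. K320E replicate 1 was the highest of the 4 K320E arrays for 11 of 16 glycolysis and lactate genes and 6 of 13 citric acid cycle genes. Without it the median fold change of glycolysis and lactate was 0.09, against 0.18 with all arrays. K320E replicate 3 was the highest for 6 of 10 pyruvate entry genes. Among controls, replicate 1 was the lowest for 7 of 16 glycolysis and lactate genes and replicate 3 the highest for 7.

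Genes next to these in the pathways gave 1 call. Pck2, the mitochondrial phosphoenolpyruvate carboxykinase, which draws oxaloacetate out of the cycle, averaged 7.06 ± 0.19 in K320E and 6.39 ± 0.12 in controls (n = 4 each, ± SD). It rose by 0.67 (SE 0.10, limma adjusted p = 0.021) and was the 1 of 13 other pyruvate genes past the test. Over all genes 0.879% passed. Of 21 other glycolysis genes and 13 other citric acid cycle genes, 0 passed, with medians of 0.07 and 0.10. At an unadjusted p under 0.05, 5 of the other glycolysis genes were higher and 2 lower, and 2 of the other cycle genes were higher and 1 lower. Over all genes 8.77% were higher and 6.06% lower at that threshold. Of 11 hypoxia targets outside glycolysis, 1 passed: Adm, which encodes the vasodilator peptide adrenomedullin, rose by 2.05 (SE 0.23, limma adjusted p = 0.0068). The hypoxia targets had a median of 0.19, with 6 positive and 5 negative fold changes.

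Marker lists of other cells and keratinocyte states also had unequal levels in the genotypes. Their part in the members' values was not tested, and the covariate fits given here only show how the values moved. All 12 skeletal muscle markers had positive fold changes (median 0.21, 0 called), their mean being 7.202, 6.67, 7.63 and 6.67 on K320E replicates 1 to 4 and between 6.30 and 6.94 in controls. All 12 measured hair structure genes had negative ones (median -0.92, 0 called), with means from 7.30 to 7.79 in K320E and from 7.81 to 9.40 in controls. The 4 stress keratins were positive (median 1.24, 0 called), with means from 11.67 to 12.11 in K320E and from 9.62 to 11.48 in controls. All 6 melanocyte markers were negative (median -0.34, 0 called), with means from 8.34 to 8.71 in K320E and from 8.63 to 9.10 in controls. Of these 6, 3 were lower at an unadjusted p under 0.05, where 6.06% of all genes were lower. Of 5 measured leukocyte markers 4 were negative (median -0.15, 0 called), among them Ptprc, which encodes the pan-leukocyte antigen CD45 (-0.54). Of 6 adipocyte markers 5 were positive (median 0.12, 0 called), the fatty acid binding protein gene Fabp4 at 1.24, and their mean reached 7.54 on K320E replicate 3, against at most 6.68 on the other K320E arrays and 6.55 in controls. Fibroblast and endothelial markers had medians of 0.19 and 0.07 (5 of 6 positive each, 0 called). Of 6 measured basal keratinocyte markers 4 were positive and 2 negative (median 0.24, 0 called), from -0.31 for Krt15 to 0.77 for Itgb4. Their means were 10.53 to 10.76 in K320E and 10.34 to 10.53 in controls. With the muscle level as a covariate the Hk2 fold change was 0.64 (limma adjusted p = 0.14) and 8 members were higher and 2 lower at an unadjusted p under 0.05, where 5.41% of all genes were higher and 4.16% lower. With the hair level as a covariate it was 0.55 (limma adjusted p = 0.36), with 9 members higher and 1 lower, where 4.51% of all genes were higher and 4.5% lower. The median of the citric acid cycle was 0.012 with the muscle and 0.015 with the hair covariate, against 0.09 without either. The hair means did not overlap between the genotypes, so the fit with that covariate cannot separate hair level from genotype.

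**Figure D5:**
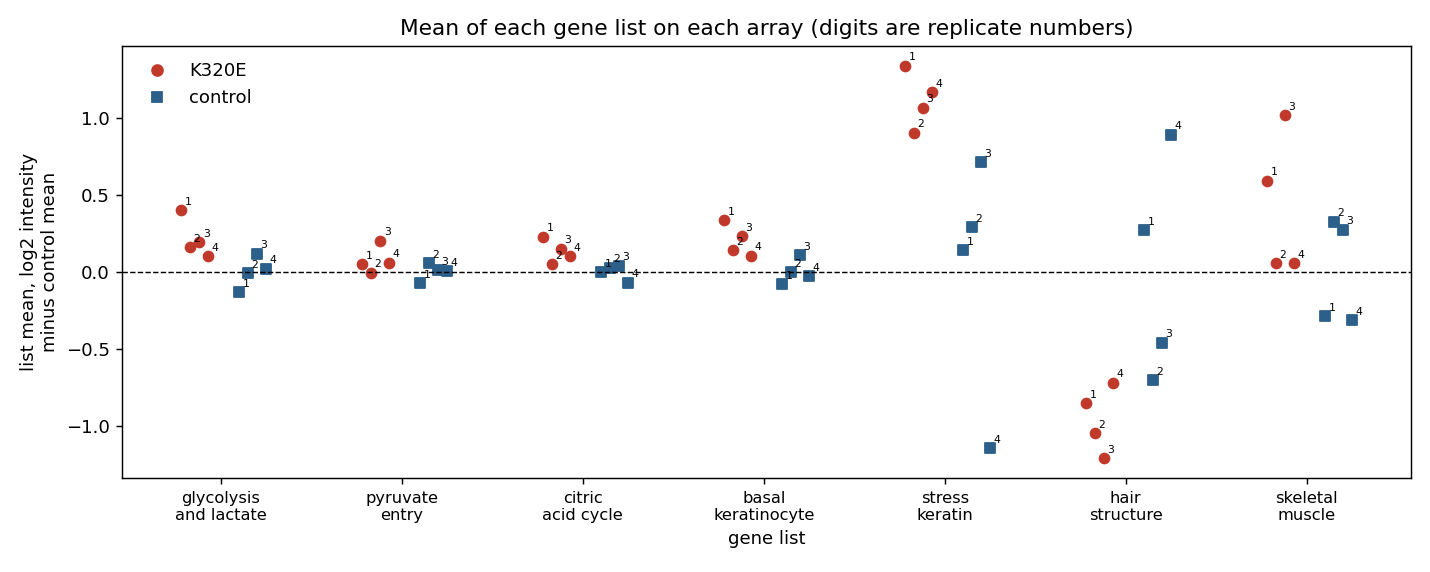
Mean log2 intensity of each gene list on each array, minus the mean of the controls; digits are replicate numbers, circles K320E and squares controls. The 3 member groups stay near the control mean, while stress keratins, hair structure and skeletal muscle genes spread more widely, and the hair list is below all controls on every K320E array.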

How the data were processed

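RNA from newborn mouse epidermis was measured on 8 expression arrays. Per the labels, it was extracted with a Maxwell kit, amplified with NuGen Applause WT-Amp Plus ST and labelled with biotin. The authors deposited log2 intensities of 33793 probe sets, with a background correction and normalisation that are not stated in the labels or the file; the values were used unchanged. Genotype groups came from the sample titles. No 2 arrays held identical values, and 4 arrays per group limit the precision.

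Of the probe sets, 23521 named 1 gene in GEO's platform annotation, 1814 named several and 8458 were unnamed here; 22180 genes remained. The test was limma's moderated one (limma 3.58.1, R 4.3.3; lmFit, then eBayes) with genotype alone in the model, and p-values were adjusted over all genes by the Benjamini-Hochberg method at a threshold of 0.05. The fit was tested on simulated data. Members, pathway lists and marker lists were chosen with earlier results of these data known. Arrays are given for called members, the 3 highest and 3 lowest fold changes of each group and the isoform pairs; Pfkfb3 and Pkm were added after their values were seen. Other pathway genes are named only if called. Promoters are those of RefSeq on GRCm38.p6. Same-numbered arrays did not deviate together (correlations from -0.06 to 0.14), so numbers were not taken as pairs. The alternatives cover normalisation, probe sets, a filter on dim genes, the variance model, array weights, sex-linked level, marker levels and leaving out each array.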

Additional observations from a re-analysis of the deposited data

Results flagged for a closer look

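Among 98 sets of 4 arrays, 9 held an array far from the other 3 by Dixon's criterion, where chance gives about 5%. The sets included each measured member, group mean and isoform pair within each genotype. The value in each sentence is the gap to the nearest array over the range of the set.

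In K320E, citrate synthase Cs was high on replicate 1 (11.13 against 10.79 to 10.82, ratio 0.911), and Pfkfb3 was low on replicate 4 (6.51 against 6.69 to 6.72, ratio 0.849). Control replicate 2 was high for Slc16a1 (7.76 against 7.54 to 7.56, ratio 0.903) and Suclg1 (8.51 against 8.34 to 8.35, ratio 0.919), and low for Dlst (8.77 against 8.91 to 8.93, ratio 0.864). Control replicate 4 was high for Pgk1 (11.11 against 10.77 to 10.80, ratio 0.917) and low for Slc16a3 (5.91 against 6.06 to 6.08, ratio 0.912). Mdh1 was low on control replicate 1 (9.44 against 9.69 to 9.71, ratio 0.92). Ldha minus Ldhb was high on control replicate 3 (-2.64 against -2.92 to -2.88, ratio 0.883).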

How the results depend on the processing

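Over all genes 195 (0.879%) were called, against 114 with the replicate block, 39 with the muscle level and 1 with the hair level as a covariate. Between 53 and 173 were called when 1 array was left out. The total rose to 288 of 14786 genes with the dimmest 33.3% left out. It was 236 of 22180 with an intensity trend and robust prior. The hair level did not overlap between the genotypes, so fits with it cannot separate hair level from genotype. Among the members, 1 was called with all arrays, 2 with the dimmest 33.3% of genes left out, 2 with an intensity trend and robust prior, 0 with the muscle and 0 with the hair covariate, and 0 to 2 when 1 array was left out. The median of glycolysis and lactate ran from 0.093 to 0.25 in the reduced fits, the citric acid cycle median from 0.07 to 0.14 and the pyruvate entry median from -0.05 to 0.03. With the muscle and the hair covariate the citric acid cycle median was 0.012 and 0.015, against 0.09 without them, and the glycolysis and lactate median 0.12 and 0.20. At an unadjusted p under 0.05, 10 to 13 members were higher and 1 to 3 lower in the fits without 1 array, where 7.09 to 8.67% of all genes were higher and 5.16 to 6.24% lower. Replicate numbers are shared only as numbers. With the replicate block Hk2 kept its limma call (adjusted p = 0.048). The isoform pairs with a replicate block were tested by flipping the signs of 4 differences. That test cannot reach 0.05 with 4 arrays per group, so its 0 passing pairs say nothing about them.

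Small fold changes turned sign under some alternatives. Fh1 was -0.0168 with quantile normalisation, -0.00295 with array weights, -0.0335 with the muscle and -0.0963 with the hair covariate. Hk1 was 0.00796 with median centring and 0.0422 without control replicates 2 and 3, where Pgk1 was -0.0611. Suclg2 was -0.046 over the mean of its probe sets and -0.163 on its second one, and Sucla2 minus Suclg2 was then 0.0771. Pdk2 was -0.00258 with array weights, -0.0937 with the muscle and -0.126 with the hair covariate. Dld was 0.00827 with array weights, Mdh1 -0.0231 with the muscle covariate, and Slc16a3 -0.0236 and Ogdh -0.0845 with the hair covariate. When 1 array was left out, Hk1 ran from -0.0644 to 0.0372, Fh1 from -0.0644 to 0.0452, Pfkm from -0.0802 to 0.0971, Pdk2 from -0.0736 to 0.0888, Pgk1 from -0.00767 to 0.107, Dld from -0.0949 to 0.053, Mdh1 from -0.00257 to 0.0876, Pdhb from -0.124 to 0.0028 and Pfkp minus Pfkl from -0.205 to 0.0763. The cause of these changes was not tested. The muscle, hair and Y-linked covariates were not run for the isoform pairs.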

Other observations

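Branches that leave glycolysis showed no called gene. All 5 measured genes of the pentose phosphate pathway, which makes NADPH and ribose from glucose phosphate, had positive fold changes (median 0.13), 0 passed the test over all genes, and 1 was higher at an unadjusted p under 0.05. Of 6 measured genes of glycogen turnover, 3 were positive and 3 negative (median -0.003), 0 passed, and 1 was higher and 1 lower at an unadjusted p under 0.05. Over all genes 0.879% passed the test, and 8.77% were higher and 6.06% lower at that unadjusted threshold.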
